A study of Rattus norvegicus with 33 samples.

Results

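Gene expression in soleus of rats with chronic spinal cord transection (SCI) was set against that in rats with laminectomy only (Sham-SCI), on 6 of the 33 arrays of the study, 3 for each group and 1 per animal. The arrays were chosen by their titles, and the comparison runs over all genes for which the table of log2 expression values has a row with 1 gene symbol. These rows number 15310 of 29214 and stand for 14506 genes, of which 14456 had a mean of at least 3 and were tested. SCI animals were female Wistar rats whose spinal cord was cut through at the thoracic level at 9 weeks of age. At 14 weeks after that they had the whole operation for implanting a nerve stimulator, but received no device and no electrical stimulation (ES), together with a tenotomy that detached the gastrocnemius from the Achilles tendon, and muscle was taken 21 days later, 17 weeks after transection. Sham-SCI animals were female Wistar rats of similar age that had the laminectomy with the cord left whole. The sources used here give neither a tenotomy nor implantation surgery for them. Transection, tenotomy and implantation surgery therefore cannot be told apart in this comparison, and their sum is called SCI here.

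Soleus is a postural muscle of the hindlimb made up mainly of slow, fatigue-resistant fibers, which rely on mitochondria and are active for much of the day. Slow contractile genes are kept on by the calcium that frequent nerve impulses release, in part through calcineurin, a phosphatase that lets the transcription factor NFAT enter the nucleus. A transection above the lumbar cord leaves the motor neuron and its endplate in place but takes away descending drive, and soleus is known to lose mass and to gain fast fibers. Connective tissue cells, vessels, nerve and resident immune cells contribute to the RNA of a whole muscle as well.

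A total of 58 of 14456 genes changed, 23 upward (0.159%) and 35 downward (0.242%), where changed means a Benjamini-Hochberg adjusted p under 0.05 in limma together with a difference of at least 1.5 fold. Values are log2 expression, differences and falls are given on the log2 scale, and each SE is that of the log2 fold change, also where it stands beside a fold. In all 58 the 3 SCI arrays lay on one side of the 3 Sham-SCI arrays. Over all genes tested, the SCI arrays lay wholly above the Sham-SCI arrays in 1322 (9.14%) and wholly below in 1899 (13.1%), and a single gene split in this way has an exact permutation p of 0.1, the smallest that 3 against 3 allows. Log2 fold changes were above 0 in 46.2% of genes, with a median of -0.02. Changes of at least 2 fold were seen in 186 genes above and 87 genes below, of which 15 and 19 passed the test. Large differences upward outnumbered those downward, but fewer of them passed the test, as the plot of fold change against level shows.

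**Figure D1:**
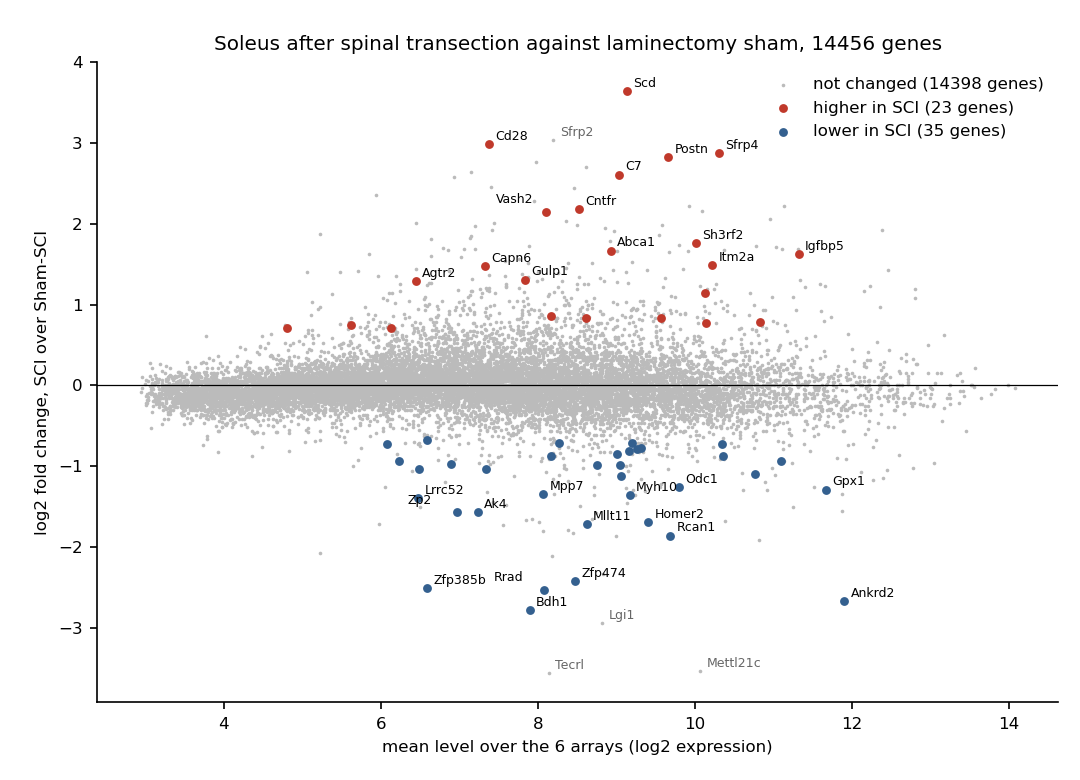
Log2 fold change, SCI over Sham-SCI (y axis), against the mean log2 expression over the 6 arrays (x axis) for 14456 genes. Red points are the 23 genes that rose and blue points the 35 that fell, and 4 uncalled genes are named in grey. Tecrl and Mettl21c lie lowest, at -3.56 and -3.54, without being called.

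Each of the 6 arrays correlated more closely with its own group (mean r over all genes 0.983 to 0.989) than with the other group (0.973 to 0.982). The first principal component held 42.7% of the variance and put the SCI arrays at -5.7, -30.6 and -21.9 and the Sham-SCI arrays at 10.8, 24.9 and 22.4. SCI replicate 1 thus lay nearest to the Sham-SCI arrays. When 1 array was left out, the count of changed genes became 14, 15 and 12 without SCI replicate 1, 2 and 3, and 27, 65 and 5 without Sham-SCI replicate 1, 2 and 3, of which 13, 11, 12, 19, 33 and 5 were among the 58. Such a fit has fewer arrays, and its adjustment over all genes differs. A call lost in it therefore does not by itself show that the gene depended on the animal dropped. With the arrays centred on their medians, the share of genes above 0 was 30.8% and the count was 25 upward and 55 downward, against 46.2%, 23 and 35 as deposited. Fold changes were also lower among dim and among bright genes. Below a level of 5 their median was -0.07 and 31.1% of 2395 genes were above 0. At levels of 10 to 11 the median was -0.07 with 40.4% of 794 genes above 0, and from 11 upward -0.06 with 41.3% of 538. A list of 51 olfactory receptor genes, which are dim and have no known part in muscle, had a median of -0.17 (-0.10 without Sham-SCI replicate 3). Of these, 43 were below 0, with 1 wholly above against 11 wholly below. A list of dim genes with a median of this size therefore did not stand apart from this unrelated list.

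The label soleus was checked on contractile genes. Myh7, the slow myosin heavy chain, measured 12.75, 12.61 and 12.33 in SCI, against 13.65, 13.30 and 13.63 in Sham-SCI, and Tnni1, slow troponin I, 12.09, 12.49 and 11.92 in SCI, against 13.16, 12.77 and 13.15 in Sham-SCI. These values lie near the top of the table, whose highest value is 14.26, in all 6 animals. Both slow genes lay wholly below in SCI without passing the test (log2 fold change -0.96, SE 0.498, adjusted p = 0.4 for Myh7, and log2 fold change -0.86, SE 0.426, adjusted p = 0.38 for Tnni1). Myh1, a fast myosin heavy chain, measured 13.58, 12.89 and 13.55 in SCI, against 8.80, 13.39 and 12.08 in Sham-SCI, so that Sham-SCI replicate 1 was far below the other 5 and the groups overlapped. The 9 Sham-GA animals of the study, described with the ablation arrays later on, had an intact cord and a sham operation on the leg. Their lowest, median and highest values of Myh1 were 7.09, 8.01 and 11.20, so that Sham-SCI replicate 1 lay within their range and Sham-SCI replicates 2 and 3 above it. The fast myosin Myh4 measured 11.69, 10.45 and 11.68 in SCI, against 9.17, 12.85 and 10.99 in Sham-SCI, with Sham-SCI replicate 2 the highest of the 6. Among markers of other cells, the T cell genes Cd3d, Cd3e and Cd3g lay between 3.89 and 5.63 on all arrays, the neutrophil gene S100a8 between 3.23 and 3.87, and the B cell gene Ms4a1 between 4.53 and 4.74, all in the dim part of the range. Not all markers of these cells were as dim. The T cell gene Cd8a and the neutrophil gene Csf3r reached 7.59 and 6.78 in Sham-SCI replicate 1, and at most 6.22 and 6.12 on the other arrays. Endothelial Pecam1 (9.22, 9.31 and 9.86 in SCI, against 9.26, 9.27 and 8.97 in Sham-SCI) and Schwann cell Sox10 (6.86, 6.77 and 7.06 in SCI, against 6.62, 6.77 and 6.80 in Sham-SCI) overlapped between groups.

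The 58 genes are taken up by their known roles, groupings that were made by hand and not tested. Some of those that fell are known to act on calcium signals. Rcan1, an inhibitor of calcineurin whose own transcription NFAT drives, measured 8.40, 9.19 and 8.69 in SCI, against 10.85, 10.09 and 10.91 in Sham-SCI. Sham-SCI replicate 2 was the lowest of its group and SCI replicate 2 the highest of its group, and a gap of 0.90 remained between them (log2 fold change -1.86, SE 0.304, adjusted p = 0.024). Its relative Rcan2 measured 10.27, 10.30 and 10.09 in SCI, against 11.46, 11.08 and 11.41 in Sham-SCI, and fell by 1.10 (SE 0.188, adjusted p = 0.031). Rrad, a small GTPase that restrains voltage-gated calcium channels, measured 7.33, 6.93 and 6.17 in SCI, against 10.00, 8.65 and 9.36 in Sham-SCI. It spread widely within each group, and the lowest Sham-SCI animal was still 1.33 above the highest SCI animal (log2 fold change -2.53, SE 0.471, adjusted p = 0.043). Homer2, a scaffold that ties calcium channels and receptors together, measured 8.44, 8.63 and 8.61 in SCI, against 10.53, 9.90 and 10.31 in Sham-SCI, and fell by 1.69 (SE 0.3, adjusted p = 0.031). Its 3 SCI values lay within 0.19 of each other.

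Other fallen genes are known from inositol phosphates and calcium entry. Inpp5a, which removes a phosphate from the calcium-releasing messenger inositol trisphosphate, measured 8.46, 8.63 and 8.69 in SCI, against 9.58, 9.35 and 9.38 in Sham-SCI (log2 fold change -0.85, SE 0.116, adjusted p = 0.011). Inpp5j, a phosphatase of inositol lipids, measured 6.50, 6.27 and 6.45 in SCI, against 7.30, 7.70 and 7.12 in Sham-SCI and fell by 0.97 (adjusted p = 0.045). Cacna1e, the pore of R-type calcium channels, measured 5.86, 5.65 and 5.66 in SCI, against 6.22, 6.53 and 6.56 in Sham-SCI and fell by 0.72 (adjusted p = 0.015). For each of these 3 genes the groups were apart by 0.36 to 0.66. In the list of excitation-contraction coupling genes, 22 measured, Rrad was the only called member, and 5 lay wholly above and 3 wholly below, with a median of 0.11 (0.03 without SCI replicate 2). Ryr3, an isoform of the calcium release channel, measured 7.05, 7.30 and 7.08 in SCI, against 8.30, 7.97 and 8.52 in Sham-SCI (log2 fold change -1.12, SE 0.29, adjusted p = 0.1, not called). With 1 array left out, Inpp5a lost its call in 1 fit, in which Sham-SCI replicate 3 was dropped (adjusted p = 0.051), and Inpp5j lost it whichever array was dropped. Rcan2, Rrad and Homer2 kept their calls only without Sham-SCI replicate 2, Rcan1 only without that array or SCI replicate 2, and Cacna1e in 3 of the 6 fits (SCI replicate 1 or either of the first 2 Sham-SCI replicates dropped), with the highest adjusted p at 0.12, 0.14, 0.12, 0.12 and 0.1.

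Because Rcan1 is a known NFAT target, a promoter of it is shown here. GGAAA, the core that NFAT proteins bind, is in capitals on either strand (TTTCC where it lies on the other strand). The study took a transcript of this gene, RCAN1.4, as the NFAT-sensitive one. The row used here does not tell transcripts apart, and the start shown was not matched to a transcript. The window runs from 250 bases before to 50 after the RefSeq start, chr11:45118187-45118486 on the minus strand of GRCr8.
Rcan1: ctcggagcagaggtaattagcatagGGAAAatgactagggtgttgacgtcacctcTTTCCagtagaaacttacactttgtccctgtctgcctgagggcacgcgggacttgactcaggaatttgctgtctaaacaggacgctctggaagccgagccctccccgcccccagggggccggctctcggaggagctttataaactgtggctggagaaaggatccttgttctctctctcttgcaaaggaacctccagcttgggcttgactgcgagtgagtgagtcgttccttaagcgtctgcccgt
The core occurs 2 times in this window. GGAAA is short, and 62.5% of 27457 RefSeq promoters of the same length hold it, as do 16 of the 30 fallen and 12 of the 19 risen genes that matched the promoter table, of 35 and 23. These shares are near that of all promoters.

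Ankrd2, an ankyrin repeat protein of slow fibers that responds to stretch, measured 10.52, 10.73 and 10.44 in SCI, against 13.52, 12.80 and 13.39 in Sham-SCI and fell by 2.67 (SE 0.531, adjusted p = 0.047). Each SCI animal was at least 2.07 below each Sham-SCI animal. Dropping any array of the 6 ended the call, at adjusted p values of 0.065 to 0.18. The fit pools the spread of all 15 arrays of the spinal cord experiment, and Ankrd2 ranged from 10.05 to 12.43 over the 9 SCI animals with ES. Fhl2, a LIM-domain protein of the Z-disc, measured 7.75, 8.27 and 7.83 in SCI, against 10.01, 8.51 and 10.07 in Sham-SCI and was called only without Sham-SCI replicate 2 (log2 fold change -1.58, SE 0.36, adjusted p = 0.074 with all arrays). Of 21 Z-disc, M-band and titin-associated genes, 7 lay wholly below and 1 wholly above, with a median of -0.25 (-0.16 without SCI replicate 1). The gene above was Tmod1, a tropomodulin that caps the slow-growing end of actin filaments, with 11.91, 12.27 and 11.87 in SCI, against 10.56, 11.21 and 10.62 in Sham-SCI (log2 fold change 1.22, SE 0.25, adjusted p = 0.054, called only without Sham-SCI replicate 2).

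Of the 35 genes that fell, 4 described here are known from mitochondria. Bdh1, the mitochondrial enzyme that interconverts the ketone bodies acetoacetate and hydroxybutyrate, measured 6.30, 6.86 and 6.37 in SCI, against 9.77, 8.54 and 9.55 in Sham-SCI. It fell by 2.78 (SE 0.29, adjusted p = 0.0017) and kept its call whichever array was dropped (adjusted p up to 0.021). The lowest Sham-SCI value, in replicate 2, was 1.68 above the highest SCI value. Ak4, a mitochondrial adenylate kinase, measured 6.28, 6.46 and 6.60 in SCI, against 8.31, 7.45 and 8.31 in Sham-SCI, and fell by 1.57 (SE 0.267, adjusted p = 0.031). Coa3, an assembly factor of cytochrome c oxidase, measured 8.87, 8.94 and 8.74 in SCI, against 9.61, 9.47 and 9.59 in Sham-SCI, and fell by 0.71 (SE 0.106, adjusted p = 0.014). Mrps18b, a protein of the small mitochondrial ribosomal subunit, measured 9.10, 8.74 and 8.78 in SCI, against 9.59, 9.73 and 9.67 in Sham-SCI, and fell by 0.79 (SE 0.129, adjusted p = 0.024). Within-group spread of Coa3 and Mrps18b was small, and their groups were 0.54 and 0.49 apart. With 1 array left out, Ak4 stayed called only when Sham-SCI replicate 2 was dropped, Coa3 only without that array or SCI replicate 2, and Mrps18b only without SCI replicate 1 (adjusted p up to 0.12, 0.098 and 0.12).

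A further 5 of the fallen genes are enzymes that act on lipids, peroxides and amines. Gpx1, the glutathione peroxidase of cytosol and mitochondria, measured 10.93, 11.03 and 11.12 in SCI, against 12.56, 12.06 and 12.31 in Sham-SCI, and fell by 1.29 (SE 0.18, adjusted p = 0.011). Odc1, ornithine decarboxylase, the first enzyme of polyamine synthesis, measured 9.12, 9.08 and 9.32 in SCI, against 10.57, 10.07 and 10.64 in Sham-SCI, and fell by 1.26 (SE 0.197, adjusted p = 0.018). Acot7, which splits long-chain acyl-CoA, measured 7.85, 7.49 and 7.83 in SCI, against 8.52, 8.77 and 8.52 in Sham-SCI and fell by 0.88 (adjusted p = 0.043). The peroxisomal oxidase Acox2 averaged 5.97 ± 0.303 in SCI and 7.00 ± 0.267 in Sham-SCI (SD, n = 3 each) and fell by 1.03 (adjusted p = 0.049), and the cholesterol ester hydrolase Nceh1 measured 8.66, 8.70 and 8.14 in SCI, against 9.80, 9.22 and 9.84 in Sham-SCI and fell by 1.12 (adjusted p = 0.045). In all 5 the groups were separate. Further enzymes of polyamine synthesis lay wholly below without a call, Amd1 with 7.95, 7.47 and 8.11 in SCI, against 8.49, 8.78 and 8.36 in Sham-SCI (log2 fold change -0.70, SE 0.144, adjusted p = 0.054) and Srm with 9.93, 9.65 and 9.84 in SCI, against 10.20, 10.35 and 10.13 in Sham-SCI (log2 fold change -0.42, SE 0.103, adjusted p = 0.089). Gpx1 kept its call without SCI replicate 2 or 3 or Sham-SCI replicate 1 or 2 and lost it without either of the others (adjusted p up to 0.071), and the calls for Acot7 and Acox2 were lost whichever array was dropped (adjusted p 0.085 to 0.14 and 0.065 to 0.21). Odc1 and Nceh1 kept theirs only without Sham-SCI replicate 2.

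Fallen genes with known parts in the cytoskeleton, protein turnover and translation were Myh10, Diaph1, Mpp7, Usp13, Trim16 and Samd4a. Myh10, a nonmuscle myosin heavy chain, measured 8.10, 8.87 and 8.48 in SCI, against 9.96, 9.54 and 10.04 in Sham-SCI, and fell by 1.36 (SE 0.26, adjusted p = 0.043). Diaph1, a formin that builds actin filaments, measured 8.59, 8.38 and 8.72 in SCI, against 9.64, 9.36 and 9.62 in Sham-SCI, and fell by 0.98 (SE 0.153, adjusted p = 0.018). Mpp7, a scaffold of cell junctions, measured 7.29, 7.53 and 7.37 in SCI, against 8.79, 8.45 and 9.00 in Sham-SCI, and fell by 1.35 (SE 0.218, adjusted p = 0.024). In all 3 genes replicate 2 was the lowest of the Sham-SCI arrays. Usp13, a deubiquitinase, has 2 rows in the table, with log2 fold changes of -0.93 and -0.98 that both passed the test when every row was tested by itself. Its main row measured 10.68, 10.63 and 10.57 in SCI, against 11.55, 11.47 and 11.66 in Sham-SCI. Trim16, a ubiquitin ligase linked to autophagy of damaged organelles, fell by 0.78 (SE 0.145, adjusted p = 0.043), and Samd4a, an RNA-binding repressor of translation, by 0.81 (SE 0.144, adjusted p = 0.031). With 1 array left out, Myh10, Mpp7 and Trim16 stayed called only when Sham-SCI replicate 2 was dropped, Diaph1 only without that array or SCI replicate 3, while Usp13 and Samd4a lost theirs in each case (adjusted p up to 0.18, 0.12, 0.16, 0.11, 0.18 and 0.12).

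Bag3, the cochaperone that guides misfolded filamin and other sarcomere proteins to autophagy together with small heat shock proteins, measured 9.73, 10.12 and 9.91 in SCI, against 10.84, 10.73 and 10.79 in Sham-SCI, and fell by 0.87 (SE 0.154, adjusted p = 0.031). The Sham-SCI values lay within 0.12 of each other, and dropping any array ended the call, at 0.052 to 0.12 as adjusted p. Bag3 is a known target of heat shock factor, and its promoter is shown with GAANNTTC, the inverted repeat bound by heat shock factor, in capitals. The window runs from 250 bases before to 50 after the RefSeq start, chr1:192533210-192533509 on the plus strand of GRCr8.
Bag3: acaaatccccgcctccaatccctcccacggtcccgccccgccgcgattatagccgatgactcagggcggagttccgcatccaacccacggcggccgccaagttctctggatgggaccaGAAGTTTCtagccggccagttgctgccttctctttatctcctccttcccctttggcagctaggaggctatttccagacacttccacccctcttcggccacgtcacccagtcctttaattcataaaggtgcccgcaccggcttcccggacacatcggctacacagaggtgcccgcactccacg
The motif occurs 1 time in this window, in 8.34% of all 27457 promoters, and in 4 of 30 fallen genes (Inpp5a, Bag3, Acot7 and Wnt16) and 1 of 19 risen genes (Igfbp5). Of a list of chaperones, cytosolic but for members such as Hspe1 and Hspd1 of mitochondria, and with Bag3 among them, 35 of 38 were below 0 and 26 lay wholly below, where 13.1% of all genes did, with a median of -0.41. Hspb7, a small heat shock protein of striated muscle, measured 10.88, 11.74 and 10.99 in SCI, against 12.71, 12.32 and 12.63 in Sham-SCI (log2 fold change -1.35, SE 0.29, adjusted p = 0.064, not called), and the mitochondrial cochaperonin Hspe1 9.62, 9.44 and 9.67 in SCI, against 10.02, 10.07 and 9.89 in Sham-SCI (log2 fold change -0.42, SE 0.0914, adjusted p = 0.067, not called). The folding complex TRiC and its partner prefoldin had 10 of 12 members below 0 and 4 wholly below, with a median of -0.19 that was -0.08 without Sham-SCI replicate 1. Folding genes of the endoplasmic reticulum divided evenly, 13 above and 14 below, with a median of -0.02.

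The remaining falls are less well tied to muscle. Zfp385b, a zinc finger protein, measured 5.31, 5.55 and 5.15 in SCI, against 7.98, 7.53 and 8.03 in Sham-SCI. The groups were 1.98 apart, and it fell by 2.51 (SE 0.26, adjusted p = 0.0017), with an adjusted p of at most 0.021 in each fit that lacked an array. Zfp474, another zinc finger protein, measured 7.51, 7.44 and 6.86 in SCI, against 9.88, 8.86 and 10.32 in Sham-SCI, and fell by 2.42 (SE 0.484, adjusted p = 0.049). Mllt11 measured 7.52, 8.10 and 7.69 in SCI, against 9.20, 9.90 and 9.35 in Sham-SCI, and fell by 1.72 (SE 0.322, adjusted p = 0.043). Here Sham-SCI replicate 2 was the highest of its group, unlike most falls. Zp2, known as a protein of the egg coat, measured 6.02, 6.19 and 6.36 in SCI, against 7.62, 7.14 and 8.52 in Sham-SCI, and fell by 1.57 (SE 0.294, adjusted p = 0.043), and Lrrc52, an accessory protein of potassium channels, measured 6.14, 5.61 and 5.59 in SCI, against 7.37, 6.60 and 7.59 in Sham-SCI, and fell by 1.40 (SE 0.268, adjusted p = 0.043). Over the 35 falls, Sham-SCI replicate 2 was the Sham-SCI array nearest to SCI in 25 genes, replicate 1 in 7 and replicate 3 in 3. Zfp474, Zp2 and Lrrc52 kept their calls only without that array, and Mllt11 lost its call in each case (adjusted p = 0.08 to 0.13).

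The last of the falls were 2 secreted signals, 2 transporters and 2 other genes. Nppc, the precursor of C-type natriuretic peptide, measured 6.96, 6.65 and 6.87 in SCI, against 7.90, 8.01 and 7.67 in Sham-SCI, and fell by 1.03 (SE 0.194, adjusted p = 0.043). Wnt16, a Wnt ligand, measured 5.91, 5.71 and 5.67 in SCI, against 6.51, 6.87 and 6.73 in Sham-SCI, and fell by 0.94 (SE 0.156, adjusted p = 0.027). The bicarbonate transporter Slc4a7 measured 7.86, 7.93 and 7.97 in SCI, against 8.84, 8.43 and 8.63 in Sham-SCI and fell by 0.71 (adjusted p = 0.043), with its 3 SCI values within 0.12 of each other. Slc26a10, of an anion transporter family, fell by 0.67 (adjusted p = 0.043), Efcab14, an EF-hand protein, by 0.73 (adjusted p = 0.014) and Tcta by 0.99 (adjusted p = 0.043). Among Nppc, Wnt16 and the other genes of this paragraph the groups were 0.44 to 0.84 apart. Whichever array was dropped, Nppc, Slc26a10 and Tcta lost their calls, with adjusted p values of 0.085 to 0.13, 0.086 to 0.18 and 0.065 to 0.16. Dropping Sham-SCI replicate 1 left Wnt16 called, dropping Sham-SCI replicate 2 left Slc4a7 called, dropping either left Efcab14 called, and no other array could be dropped without loss.

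**Figure D2:**
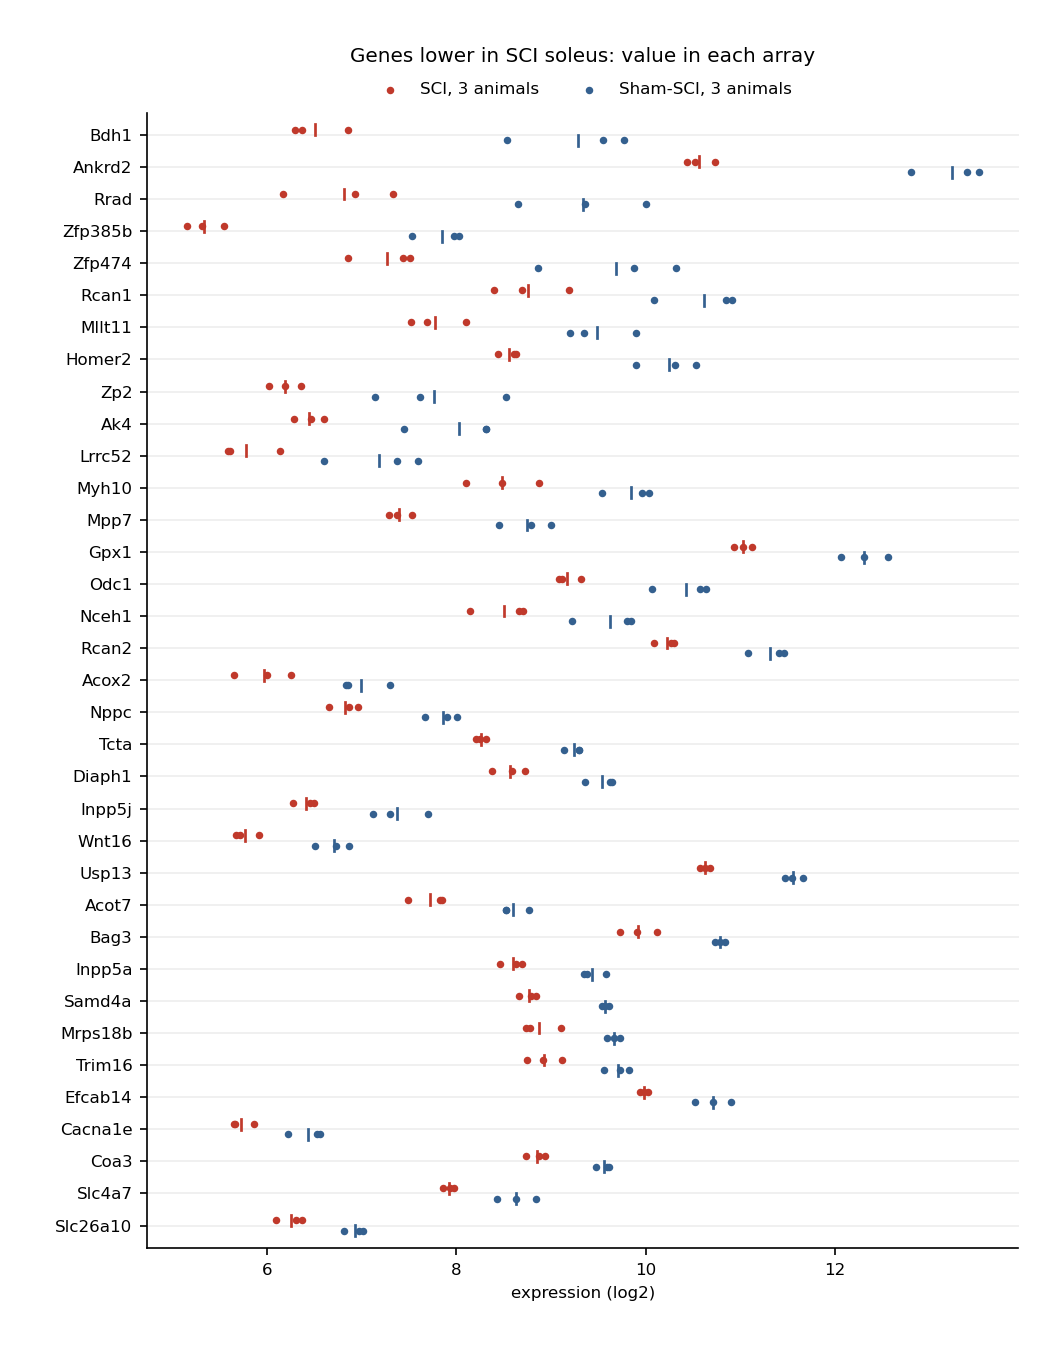
Expression (log2, x axis) of the 35 genes that were lower in SCI (rows), with SCI in red above Sham-SCI in blue. Points are the 3 animals of each group and the short bars are means. In every row the SCI points lie wholly to the left of the Sham-SCI points, and for Zfp385b the nearest points are 1.98 apart.

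Of the 23 genes that rose, Scd, Abca1, Crot and Slc27a3 are known from lipid handling. Scd, the desaturase that puts the first double bond into saturated fatty acids, measured 10.49, 11.93 and 10.46 in SCI, against 6.69, 7.31 and 7.97 in Sham-SCI, and was the largest of the called changes (log2 fold change 3.64, SE 0.627, adjusted p = 0.031). SCI replicate 2 was the highest, and the lowest SCI animal was 2.49 above the highest Sham-SCI animal. Abca1, which exports cholesterol from cells, measured 9.36, 10.05 and 9.89 in SCI, against 8.82, 7.70 and 7.77 in Sham-SCI, and rose 3.18-fold (adjusted p = 0.043). Crot, the peroxisomal carnitine octanoyltransferase, measured 10.01, 9.97 and 9.99 in SCI, against 9.13, 9.18 and 9.14 in Sham-SCI, with SCI values that differed by only 0.04 (log2 fold change 0.84, SE 0.147, adjusted p = 0.031). Slc27a3, an acyl-CoA synthetase of the fatty acid transport family, measured 5.72, 6.15 and 6.12 in SCI, against 5.43, 5.25 and 5.05 in Sham-SCI, and rose 1.69-fold (adjusted p = 0.031). Scd was the only called member among 27 genes of lipogenesis and lipid droplets, where 14 were above 0 and 13 below, with a median of 0.04. In that list Acaca, acetyl-CoA carboxylase, lay wholly below with 8.00, 8.12 and 8.18 in SCI, against 8.99, 8.40 and 8.99 in Sham-SCI (log2 fold change -0.69, SE 0.227, adjusted p = 0.18, not called), and so did G0s2, an inhibitor of lipolysis, with 8.36, 7.71 and 8.62 in SCI, against 9.34, 9.57 and 9.09 in Sham-SCI (log2 fold change -1.10, SE 0.278, adjusted p = 0.096, not called). Whichever array was dropped, Scd and Crot lost their calls, with adjusted p values of 0.056 to 0.1 and 0.052 to 0.12, although the log2 fold change of Crot stayed at 0.83 to 0.86. Abca1 stayed called in 1 such fit, which lacked Sham-SCI replicate 1, and Slc27a3 in that fit and the fit that lacked SCI replicate 1.

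Among the rises, Sfrp4, Postn, C7, Igfbp5 and Angptl2 encode secreted proteins. Sfrp4, a soluble antagonist of Wnt proteins, measured 11.59, 12.18 and 11.47 in SCI, against 9.51, 8.09 and 8.98 in Sham-SCI, and rose 7.38-fold (SE 0.537, adjusted p = 0.043). Postn, periostin, a matrix protein of fibroblasts, measured 10.66, 11.05 and 11.52 in SCI, against 7.66, 8.54 and 8.56 in Sham-SCI, and rose 7.11-fold (SE 0.539, adjusted p = 0.043). C7, a component of the complement membrane attack complex, measured 10.03, 10.25 and 10.76 in SCI, against 8.12, 7.22 and 7.87 in Sham-SCI, and rose 6.09-fold (SE 0.409, adjusted p = 0.018). All 3 were 1.91 to 2.10 apart between the nearest SCI and Sham-SCI animals. Igfbp5, a binding protein for insulin-like growth factors, measured 12.32, 11.83 and 12.26 in SCI, against 10.36, 10.76 and 10.40 in Sham-SCI. It rose 3.09-fold (SE 0.188, adjusted p = 0.0038) and kept its call whichever array was dropped (adjusted p up to 0.032). Angptl2, an angiopoietin-like secreted protein, measured 11.01, 11.28 and 11.37 in SCI, against 10.28, 10.48 and 10.54 in Sham-SCI (log2 fold change 0.79, SE 0.158, adjusted p = 0.05 after rounding, with the unrounded value under the threshold). Whichever array was dropped, Sfrp4, Postn and Angptl2 lost their calls, at 0.061 to 0.13, 0.065 to 0.15 and 0.072 to 0.18 as adjusted p, and C7 stayed called only when Sham-SCI replicate 1 or 2 was the array dropped.

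A further 6 of the rises encode receptors or other membrane proteins. Cd28, known as the costimulatory receptor of T cells, measured 8.10, 10.04 and 8.48 in SCI, against 5.66, 5.83 and 6.16 in Sham-SCI. SCI replicate 2 was the highest, and the groups were 1.94 apart (log2 fold change 2.99, SE 0.423, adjusted p = 0.011). Cd28 was the only called gene among 20 markers of T and NK cells, of which 10 lay above 0 and 10 below, with a median of -0.01. Cd3e measured 5.63, 5.51 and 5.62 in SCI, against 5.34, 5.42 and 5.32 in Sham-SCI, with a gap of 0.09, and Lck measured 5.98, 5.50 and 6.07 in SCI, against 5.83, 5.83 and 5.98 in Sham-SCI, with overlap. Cd4, which macrophages carry as well as T cells, measured 9.69, 9.94 and 10.30 in SCI, against 9.81, 8.19 and 9.02 in Sham-SCI, also with overlap (log2 fold change 0.97, SE 0.489, adjusted p = 0.38). The call for Cd28 ended in 1 fit, in which Sham-SCI replicate 3 was dropped (adjusted p = 0.051). Cntfr, the receptor subunit that binds ciliary neurotrophic factor, measured 9.25, 10.22 and 9.40 in SCI, against 6.72, 8.31 and 7.31 in Sham-SCI, and rose 4.53-fold (SE 0.386, adjusted p = 0.031). Agtr2, the type 2 receptor of angiotensin II, measured 6.99, 7.47 and 6.82 in SCI, against 5.65, 5.66 and 6.08 in Sham-SCI (log2 fold change 1.29, SE 0.256, adjusted p = 0.046), and Agtr1a, the type 1 receptor, lay wholly above as well with 7.88, 7.94 and 8.09 in SCI, against 7.41, 6.63 and 6.36 in Sham-SCI (log2 fold change 1.17, SE 0.351, adjusted p = 0.15, not called).

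Itm2a, an integral membrane protein known from developing muscle and cartilage, measured 11.02, 10.91 and 10.98 in SCI, against 9.32, 9.47 and 9.64 in Sham-SCI. SCI animals lay within 0.12 and Sham-SCI animals within 0.31 of each other, and it kept its call whichever array was dropped (log2 fold change 1.49, SE 0.189, adjusted p = 0.0075, up to 0.039 with an array left out). Plscr4, a phospholipid scramblase, measured 9.03, 9.06 and 9.00 in SCI, against 8.15, 8.07 and 8.39 in Sham-SCI (log2 fold change 0.83, SE 0.145, adjusted p = 0.031). The protocadherin Pcdhb4, a neural adhesion protein, measured 5.13, 5.07 and 5.29 in SCI, against 4.61, 4.58 and 4.17 in Sham-SCI and was the dimmest of the called rises (log2 fold change 0.71, SE 0.125, adjusted p = 0.031). Clustered protocadherins are close in sequence, so this reading is uncertain as to the member. Whichever array was dropped, Plscr4 and Agtr2 lost their calls, at 0.074 to 0.11 and 0.093 to 0.15 as adjusted p. Cntfr stayed called only when Sham-SCI replicate 2 was dropped, and Pcdhb4 when Sham-SCI replicate 1 or 2 was.

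Of the remaining rises, Vash2, a vasohibin that removes the terminal tyrosine of tubulin, measured 8.69, 10.00 and 8.85 in SCI, against 7.19, 6.75 and 7.17 in Sham-SCI, and rose 4.43-fold (SE 0.296, adjusted p = 0.011). Sh3rf2, a RING-finger scaffold of stress kinase signaling, measured 11.44, 10.52 and 10.72 in SCI, against 9.21, 9.27 and 8.92 in Sham-SCI, and rose 3.38-fold (SE 0.253, adjusted p = 0.011). Both kept their calls in 5 of the 6 fits with an array left out, ending only without Sham-SCI replicate 3. Capn6, a calpain without protease activity that binds microtubules, measured 7.62, 8.23 and 8.35 in SCI, against 6.82, 6.34 and 6.59 in Sham-SCI, and rose 2.8-fold (SE 0.25, adjusted p = 0.029). Gulp1, an adaptor for the engulfment of dying cells, measured 8.32, 8.54 and 8.62 in SCI, against 7.29, 7.13 and 7.13 in Sham-SCI, and rose 2.48-fold (SE 0.228, adjusted p = 0.031). Gstm5, a glutathione transferase, measured 10.62, 10.90 and 10.58 in SCI, against 9.42, 9.55 and 9.73 in Sham-SCI, and rose 2.2-fold (SE 0.159, adjusted p = 0.011). In each of these 5 genes the nearest animals of the 2 groups were at least 0.80 apart. Usp53, of the ubiquitin protease family, rose 1.82-fold (adjusted p = 0.011), Zcchc24 1.7-fold (adjusted p = 0.045) and the zinc finger gene Zfp503 1.63-fold (adjusted p = 0.043). With 1 array left out, Gstm5 lost its call in 1 fit (SCI replicate 2 dropped), Capn6 held it in 2 (SCI replicate 1 or Sham-SCI replicate 1 dropped), Usp53 in 3 (SCI replicate 3 or Sham-SCI replicate 1 or 2 dropped), Zcchc24 in 1 (Sham-SCI replicate 2 dropped), and Gulp1 and Zfp503 lost it in each case (adjusted p up to 0.12 and 0.16).

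**Figure D3:**
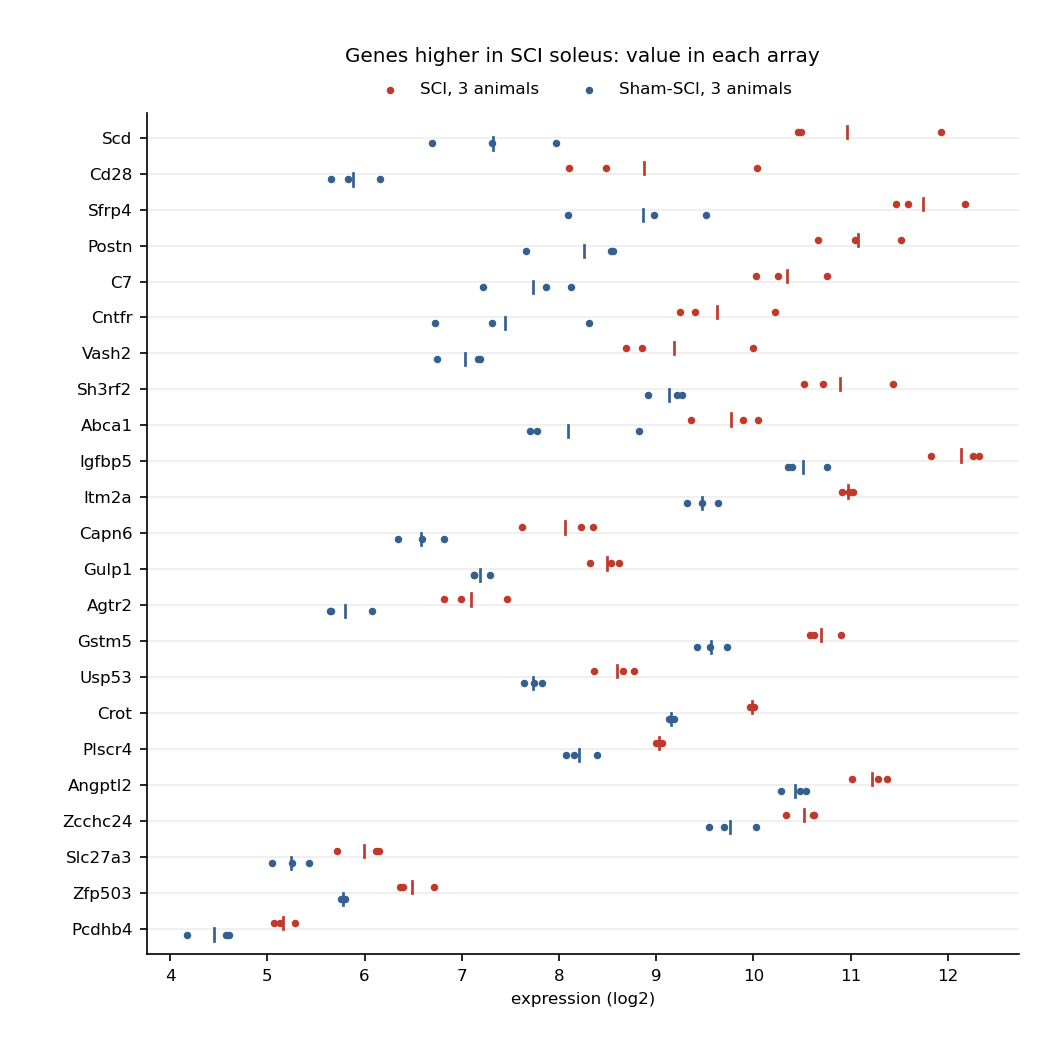
Expression (log2, x axis) of the 23 genes that were higher in SCI (rows), with SCI in red above Sham-SCI in blue. Points are the 3 animals of each group and the short bars are means. In every row the SCI points lie wholly to the right of the Sham-SCI points, and SCI replicate 2 is the highest point for Scd (11.93) and Cd28 (10.04).

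Antioxidant and glutathione enzymes divided by member. Gpx1 fell and Gstm5 rose, and of 46 measured, 11 lay wholly above and 13 wholly below, with a median of -0.07. Gstm2, a relative of Gstm5, measured 10.98, 11.62 and 10.93 in SCI, against 7.85, 10.45 and 8.74 in Sham-SCI (log2 fold change 2.16, SE 0.454, adjusted p = 0.056, called only without Sham-SCI replicate 2). Genes of this transferase family are close in sequence and may share signal. Nqo1, a quinone reductase, lay wholly below with 8.10, 9.22 and 8.36 in SCI, against 10.39, 9.83 and 9.53 in Sham-SCI (log2 fold change -1.36, SE 0.377, adjusted p = 0.13, not called). Enzymes of the ketone body list went both ways too, with Bdh1 far below, Oxct1 at -0.43 and Bdh2, a cytosolic relative, at 0.78, and 1 wholly above and 4 wholly below among 5.

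Several of the largest differences did not pass the test. Among genes wholly below in SCI, Tecrl, an enoyl-CoA reductase-like protein of the sarcoplasmic reticulum, measured 6.39, 6.71 and 5.99 in SCI, against 9.97, 9.26 and 10.53 in Sham-SCI (log2 fold change -3.56, SE 0.811, adjusted p = 0.074). Mettl21c, a lysine methyltransferase of muscle, measured 7.93, 9.06 and 7.92 in SCI, against 11.97, 11.18 and 12.36 in Sham-SCI (log2 fold change -3.54, SE 0.787, adjusted p = 0.07), and Lgi1, a secreted protein known from synapses, measured 7.80, 6.86 and 7.39 in SCI, against 10.47, 9.78 and 10.62 in Sham-SCI (log2 fold change -2.94, SE 0.858, adjusted p = 0.14). For these 3 the nearest animals of the groups were 1.97 to 2.54 apart. Asb18, of a family of ubiquitin ligase adaptors, measured 8.14, 6.83 and 8.00 in SCI, against 10.30, 9.36 and 10.34 in Sham-SCI, and Pla2g7, which inactivates platelet-activating factor, 6.89, 7.00 and 7.50 in SCI, against 9.42, 9.21 and 9.08 in Sham-SCI (log2 fold changes -2.34 and -2.11, adjusted p = 0.1 and 0.074). The calcium store protein Casq2, the mitochondrial regulator Perm1, the slow myosin Myh7b, the cytidine deaminase Cda and the lactate and pyruvate carrier Slc16a7 followed, with log2 fold changes of -1.91, -1.87, -1.83, -1.80 and -1.79, and dropping Sham-SCI replicate 2 brought Cda and Slc16a7 past the test. Perm1 was 8.81, 6.67 and 8.69 in SCI, against 9.70, 10.14 and 9.95 in Sham-SCI, so SCI replicate 2 was well below the other SCI animals, whereas Casq2 was even among SCI animals with 9.81, 9.91 and 9.85, against 11.95, 11.35 and 12.02 in Sham-SCI animals.

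Among genes wholly above in SCI but not called, Sfrp2, a relative of Sfrp4, measured 9.30, 10.13 and 9.74 in SCI, against 7.85, 6.16 and 6.03 in Sham-SCI (log2 fold change 3.04, SE 0.629, adjusted p = 0.054), and passed only without Sham-SCI replicate 1. Col3a1, a collagen of loose connective tissue, measured 10.91, 11.09 and 11.11 in SCI, against 9.22, 8.58 and 8.64 in Sham-SCI (log2 fold change 2.22, SE 0.529, adjusted p = 0.081). Cthrc1, a secreted protein of activated fibroblasts, measured 7.91, 8.57 and 8.93 in SCI, against 6.04, 5.60 and 5.83 in Sham-SCI, and Ctsk, a protease that cuts collagen, 8.97, 9.84 and 10.26 in SCI, against 7.37, 6.82 and 7.55 in Sham-SCI (log2 fold changes 2.64 and 2.45, adjusted p = 0.12 and 0.08). In these matrix genes each SCI animal was at least 1.43 above each Sham-SCI animal. In others a single SCI animal stood out. Ctxn3 measured 6.93, 11.30 and 7.69 in SCI, against 6.02, 6.12 and 6.40 in Sham-SCI and Tmem100 8.63, 10.97 and 8.50 in SCI, against 6.76, 6.31 and 6.70 in Sham-SCI, with SCI replicate 2 standing out in both. Apod, an apolipoprotein known from injured nerve, measured 8.60, 9.07 and 12.20 in SCI, against 7.55, 7.17 and 7.06 in Sham-SCI and the chemokine Cxcl13 6.25, 6.25 and 8.84 in SCI, against 4.50, 5.03 and 4.75 in Sham-SCI, with SCI replicate 3 standing out. Mmp12, the macrophage elastase, and Lbp, which binds bacterial lipopolysaccharide, were also highest in SCI replicate 3, with 7.33, 8.05 and 9.28 in SCI, against 6.67, 5.16 and 5.10 in Sham-SCI for Mmp12 and 8.27, 9.10 and 9.92 in SCI, against 6.89, 6.81 and 6.74 in Sham-SCI for Lbp. Adjusted p values of these 6 genes ran from 0.084 (Tmem100) to 0.35 (Cxcl13).

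Beyond single genes, 69 lists of genes were described by their counts, without a test of any list. The lists were chosen with earlier results of these data known. Some genes stand in several lists, so the lists are not independent of each other. Col3a1, for example, counts among fibroblast markers and collagen chains, and Ctsk among matrix proteases and lysosomal proteins. A median within 0.07 of 0 gives no direction, and with 1 array left out the medians of this size printed here lay between -0.22 and 0.17. Genes of slow fibers were below 0 in 14 of 14 and wholly below in 11, with a median of -1.03 and a range of -2.67 (Ankrd2) to -0.14 (Pln). Ankrd2 was the only called member. Genes of fast fibers were above 0 in 12 of 12, with a median of 1.03, but only 2 lay wholly above, Myl1 with 13.64, 13.81 and 13.56 in SCI, against 13.40, 13.54 and 13.45 in Sham-SCI (log2 fold change 0.21, SE 0.0875, adjusted p = 0.29) and Pvalb with 12.42, 12.23 and 12.09 in SCI, against 7.78, 12.09 and 10.22 in Sham-SCI (log2 fold change 2.22, SE 0.874, adjusted p = 0.26). The parvalbumin gene Pvalb differed by under 0.01 between Sham-SCI replicate 2 and the lowest SCI animal. The fast median ran from 0.36 to 1.72 when 1 array was left out, lowest without Sham-SCI replicate 1 and highest without Sham-SCI replicate 2, whereas the slow median ran from -1.26 to -0.87. The 9 intact Sham-GA animals had 5.29, 6.33 and 7.31 as their lowest, median and highest value of Pvalb, 9.94, 10.61 and 11.26 of Tnnc2, fast troponin C, and 8.81, 10.73 and 11.84 of Tnnt3, fast troponin T. Tnnc2 measured 13.44, 13.27 and 13.50 in SCI, against 10.96, 13.35 and 12.30 in Sham-SCI, and Tnnt3 13.40, 13.21 and 13.45 in SCI, against 10.88, 13.42 and 12.51 in Sham-SCI. In Tnnc2 and Tnnt3, as in Myh1, Sham-SCI replicate 1 thus lay within the range of the Sham-GA animals and Sham-SCI replicates 2 and 3 above it, while in Pvalb all 3 lay above it. In whole muscle, fewer cells of a type and less RNA per cell cannot be told apart.

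Connective tissue genes lay above 0 for the most part. Markers of fibroblasts were above 0 in 16 of 16 and wholly above in 14, where 9.14% of all genes were, with a median of 0.90 and 0 called. Col1a1, a chain of type I collagen, measured 11.70, 12.16 and 12.10 in SCI, against 9.54, 10.36 and 9.90 in Sham-SCI (log2 fold change 2.06, SE 0.526, adjusted p = 0.099), and Fap, a surface protease of activated fibroblasts, 7.47, 7.88 and 8.12 in SCI, against 6.75, 5.64 and 6.30 in Sham-SCI (log2 fold change 1.59, SE 0.399, adjusted p = 0.096). Of 35 matrix glycoproteins, proteoglycans and crosslinkers 31 were above 0 and 23 wholly above, with a median of 0.84, and Postn was the called member. Mmp2 and Mmp14, proteases that remodel matrix, averaged 11.96 ± 0.336 in SCI and 10.27 ± 0.207 in Sham-SCI for Mmp2 and 9.49 ± 0.467 in SCI and 7.50 ± 0.201 in Sham-SCI for Mmp14 (SD, n = 3 each) with limma adjusted p = 0.061 and 0.07, and 13 of 29 matrix proteases and inhibitors lay wholly above and 0 wholly below. Collagen chains were above 0 in 17 of 19, with a median of 0.41. Over the 9 Sham-GA animals, Col1a1 had 9.96, 10.68 and 13.39 as its lowest, median and highest value, and Fap 6.13, 6.79 and 9.24. Sham-GA means at 1, 3 and 7 days were 10.12, 11.12 and 13.01 for Col1a1 and 6.55, 6.94 and 9.10 for Fap. SCI means were 11.99 and 7.82, so the Sham-GA means at 7 days were the higher ones. This was not tested. Markers of tendon cells had no common direction, 7 above and 5 below with a median of 0.08 (-0.20 to 0.98 with an array left out, lowest without Sham-SCI replicate 1 and highest without SCI replicate 1), and the tendon gene Tnmd measured 4.75, 7.67 and 8.13 in SCI, against 5.53, 7.16 and 7.45 in Sham-SCI. SCI replicate 1 and Sham-SCI replicate 1 were low in Tnmd. Fibroblast markers had mean deviations from their medians over the 6 arrays of 0.31, 0.64 and 0.76 in SCI replicates 1 to 3 and -0.42, -0.78 and -0.48 in Sham-SCI replicates 1 to 3, and their part in the rise of Postn, Sfrp4 and C7 was not tested.

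**Figure D4:**
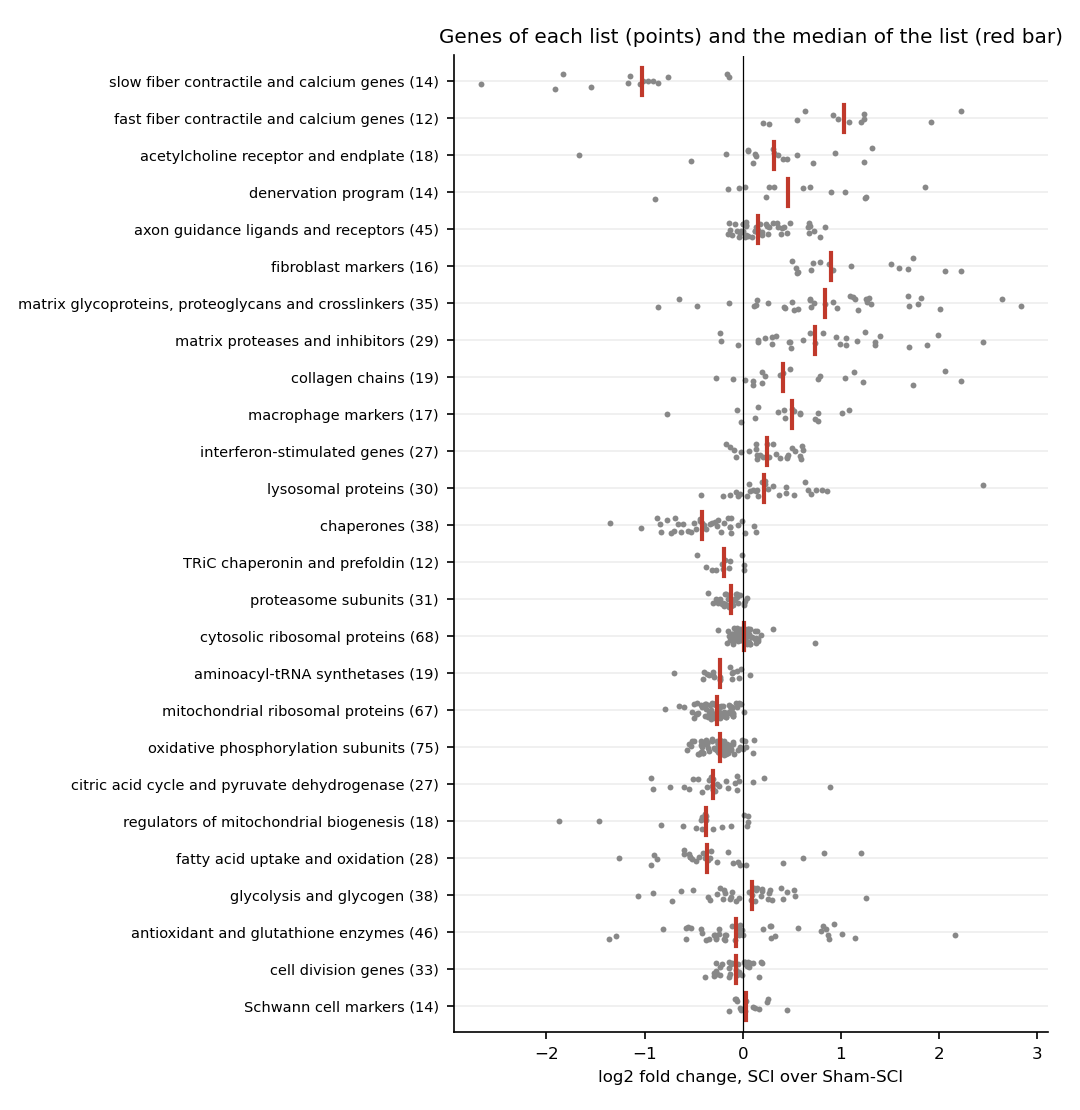
Log2 fold change, SCI over Sham-SCI (x axis), of the genes (grey points) of lists chosen with earlier results of these data known (rows, with the number of genes measured), and the median of each list (red bar). Slow fiber genes lie left of 0 with a median of -1.03, fibroblast markers right of 0 with a median of 0.90, and cytosolic ribosomal proteins around 0.01.

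Genes of mitochondria and fat oxidation lay below 0 by small amounts over many members. Mitochondrial ribosomal proteins were below 0 in 66 of 67 and wholly below in 35, with a median of -0.26 and Mrps18b the called member, whereas cytosolic ribosomal proteins had a median of 0.01, 41 above and 27 below, and 0 wholly below. Subunits of oxidative phosphorylation were below 0 in 71 of 75 and wholly below in 24, with a median of -0.23 that ran from -0.33 to -0.09 with an array left out and was nearest 0 without SCI replicate 2. Genes of fatty acid uptake and oxidation were below 0 in 23 of 28 and wholly below in 16, with a median of -0.36. Their lowest member was Fabp3, the fatty acid binding protein of heart and slow muscle, with 11.35, 10.57 and 10.76 in SCI, against 12.14, 12.05 and 12.27 in Sham-SCI (log2 fold change -1.26, SE 0.485, adjusted p = 0.25). The highest was Ucp3, the uncoupling protein of muscle, with 11.21, 10.72 and 10.62 in SCI, against 9.22, 9.96 and 9.75 in Sham-SCI (log2 fold change 1.20, SE 0.282, adjusted p = 0.076). Regulators of mitochondrial biogenesis were wholly below in 12 of 18, with a median of -0.37 (-0.24 without SCI replicate 2), and the nuclear receptor Esrrg measured 8.34, 8.77 and 8.10 in SCI, against 9.96, 9.60 and 10.03 in Sham-SCI (log2 fold change -1.46, SE 0.358, adjusted p = 0.088). None of these named members besides Mrps18b was called.

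Glucose metabolism did not share a direction. Of 38 genes of glycolysis and glycogen, 21 were above 0 and 17 below, with 1 wholly above and 6 wholly below. Pfkfb3, which makes the activator of phosphofructokinase, measured 9.84, 8.28 and 9.70 in SCI, against 8.15, 8.23 and 7.65 in Sham-SCI (log2 fold change 1.26, SE 0.438, adjusted p = 0.2), and Ldhb, the lactate dehydrogenase subunit of slow muscle and heart, 11.73, 11.60 and 11.42 in SCI, against 12.79, 12.30 and 12.89 in Sham-SCI (log2 fold change -1.07, SE 0.42, adjusted p = 0.26). Gbe1, the branching enzyme of glycogen, measured 9.93, 9.69 and 9.97 in SCI, against 10.91, 10.70 and 10.69 in Sham-SCI (log2 fold change -0.91, SE 0.227, adjusted p = 0.093). Prkag3, a subunit of AMP-activated kinase found in fast fibers, measured 10.85, 11.25 and 10.14 in SCI, against 8.60, 9.83 and 8.79 in Sham-SCI (log2 fold change 1.67, SE 0.496, adjusted p = 0.15). None of these 4 was called.

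In lists tied to denervation and the endplate SCI replicate 2 stood out. Of 18 genes of the acetylcholine receptor and endplate 15 were above 0, with a median of 0.32 that was 0.08 without SCI replicate 2, and 2 lay wholly above and 1 wholly below. Chrne, the adult receptor subunit, measured 8.14, 8.21 and 7.11 in SCI, against 6.79, 6.31 and 6.41 in Sham-SCI (log2 fold change 1.32, SE 0.563, adjusted p = 0.3), and Colq, the collagen tail that anchors acetylcholinesterase, 6.98, 7.30 and 6.74 in SCI, against 9.08, 7.88 and 9.09 in Sham-SCI (log2 fold change -1.67, SE 0.441, adjusted p = 0.11). Musk, the kinase that organizes the endplate, measured 7.16, 9.78 and 7.71 in SCI, against 7.35, 6.77 and 6.83 in Sham-SCI, with SCI replicate 2 far above the other animals. The cell cycle inhibitor Cdkn1a, of the denervation list, measured 9.28, 12.56 and 9.62 in SCI, against 9.16, 8.29 and 8.42 in Sham-SCI, again with SCI replicate 2 the highest. As mean deviations from their medians over the 6 arrays, genes of the denervation program were at -0.02, 1.02 and 0.04 in SCI replicates 1 to 3 and -0.09, -0.21 and -0.25 in Sham-SCI replicates 1 to 3 (median log2 fold change 0.46, and 0.24 without SCI replicate 2), and those of the receptor and endplate at -0.01, 0.79 and 0.05 in SCI replicates 1 to 3 and 0.16, -0.09 and -0.02 in Sham-SCI replicates 1 to 3. Axon guidance genes were above 0 in 36 of 45 and wholly above in 10, with 0 wholly below and a median of 0.16 (0.10 without SCI replicate 3 and 0.27 without Sham-SCI replicate 2), and Slit3, a guidance ligand, measured 8.35, 8.91 and 8.73 in SCI, against 7.92, 7.71 and 7.87 in Sham-SCI. In this list SCI replicate 2 did not stand out, with mean deviations of 0.03, 0.06 and 0.27 in SCI replicates 1 to 3 and -0.15, 0.03 and -0.18 in Sham-SCI replicates 1 to 3. Markers of Schwann cells had a median of 0.03, with 0 of 14 wholly above or below.

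Immune markers differed among animals of both groups. Macrophage markers were above 0 in 14 of 17, with a median of 0.50 and 0 wholly above or below. With 1 array left out this median ran from 0.03 to 1.09, lowest without Sham-SCI replicate 2 and highest without Sham-SCI replicate 1. Cd68, a lysosomal protein of macrophages, measured 8.27, 8.39 and 9.04 in SCI, against 9.70, 7.00 and 7.76 in Sham-SCI, and Cd163, a scavenger receptor, 9.03, 8.94 and 9.46 in SCI, against 9.72, 7.55 and 7.86 in Sham-SCI, so Sham-SCI replicate 1 was the highest and Sham-SCI replicate 2 the lowest of the 6. The mean deviations of the list were -0.05, 0.02 and 0.56 in SCI replicates 1 to 3 and 0.76, -1.02 and -0.48 in Sham-SCI replicates 1 to 3. Interferon-stimulated genes were above 0 in 22 of 27 and wholly above in 4, with a median of 0.25, and lysosomal proteins were wholly above in 9 of 30, with a median of 0.22 (0.13 when Sham-SCI replicate 2 was left out, and 0.34 when Sham-SCI replicate 1 was). Complement genes had C7 as the called member and Cfi, factor I, wholly below with 6.33, 6.20 and 6.14 in SCI, against 7.79, 6.51 and 7.92 in Sham-SCI (log2 fold change -1.19, SE 0.324, adjusted p = 0.12, called only without Sham-SCI replicate 2). The red cell genes Hbb (13.44, 11.52 and 12.24 in SCI, against 12.75, 12.05 and 13.29 in Sham-SCI) and Alas2 (11.18, 7.61 and 8.66 in SCI, against 9.61, 8.67 and 10.72 in Sham-SCI) were highest in SCI replicate 1. Red cell markers ran at 1.42, -0.82 and -0.28 in SCI replicates 1 to 3 and 0.23, -0.41 and 1.07 in Sham-SCI replicates 1 to 3 in mean deviation, which overlapped between groups.

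**Figure D5:**
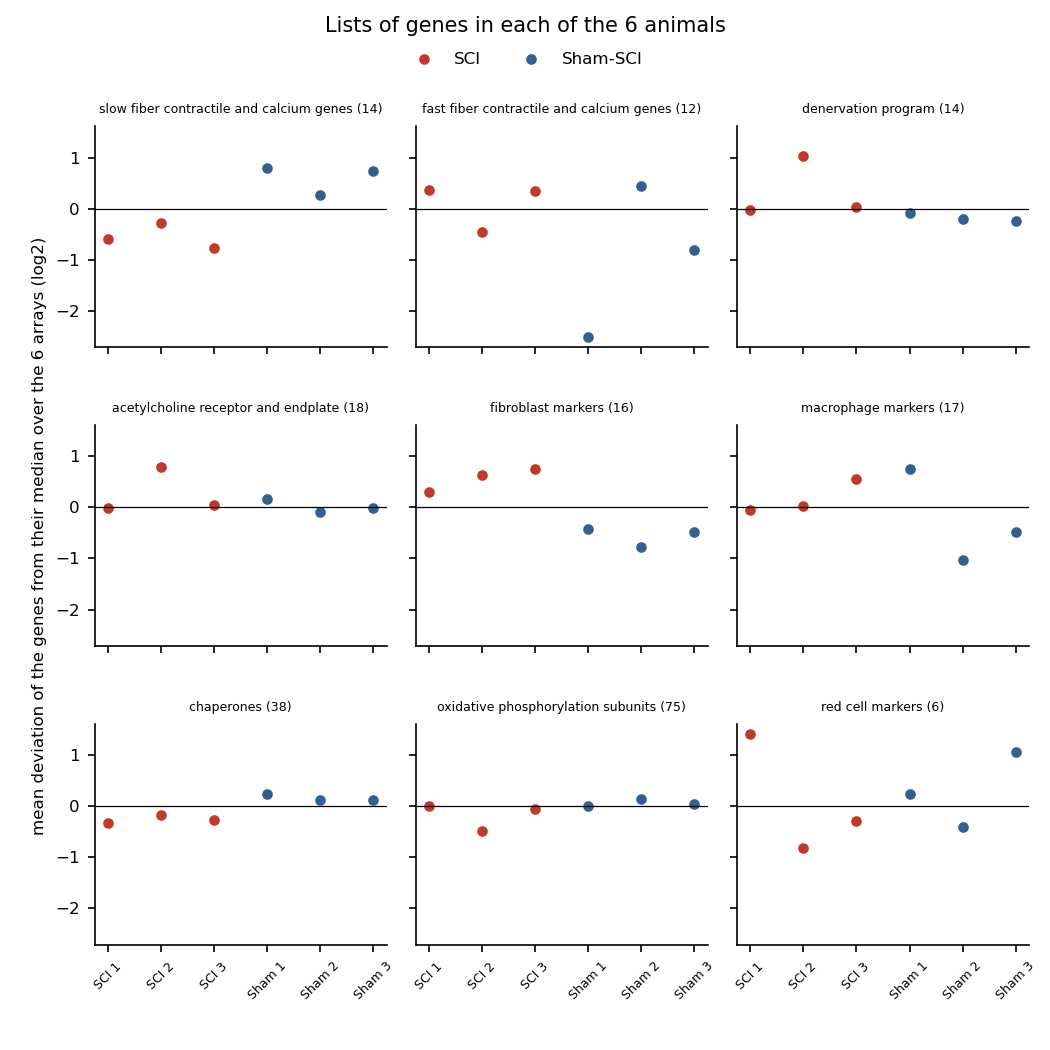
Mean deviation of the genes of 9 lists from their medians over the 6 arrays (log2, y axis) in each animal (x axis), with SCI in red and Sham-SCI in blue. Slow fiber genes, fibroblast markers and chaperones separate the groups, whereas fast fiber genes differ widely among Sham-SCI animals (-2.52, 0.45 and -0.81) and the denervation program is highest in SCI replicate 2 (1.02).

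Growth factor signals were mixed. Of 23 genes of the insulin and insulin-like growth factor pathway 11 lay wholly above and 5 wholly below, with a median of 0.34 and Igfbp5 as the called member. Pik3r1, a regulatory subunit of phosphoinositide 3-kinase, measured 10.61, 11.48 and 10.54 in SCI, against 9.95, 10.06 and 9.85 in Sham-SCI (log2 fold change 0.92, SE 0.213, adjusted p = 0.076), and Grb14, an adaptor that inhibits the insulin receptor, 8.37, 7.80 and 7.94 in SCI, against 8.80, 8.89 and 8.82 in Sham-SCI (log2 fold change -0.80, SE 0.191, adjusted p = 0.082). Among 47 genes of transforming growth factor beta, activin and bone morphogenetic protein signals, 33 were above 0 and 11 wholly above, with a median of 0.16 (0.07 without SCI replicate 2 and 0.25 without SCI replicate 1). Chrdl1, an antagonist of bone morphogenetic proteins, measured 8.19, 9.94 and 9.27 in SCI, against 7.24, 7.59 and 8.05 in Sham-SCI, and Inhba, a subunit of activin, 6.35, 6.47 and 6.89 in SCI, against 7.07, 7.06 and 7.50 in Sham-SCI. Of the nuclear receptors 9 of 25 were wholly below and 0 wholly above. Their median was -0.10 and changed sign with an array left out (-0.25 without Sham-SCI replicate 3 and 0.10 without SCI replicate 2). Regulators of muscle wasting showed no common direction: of 34 ubiquitin ligases, autophagy and atrophy genes 18 were above 0 and 16 below, with a median of 0.04. Proteasome subunits were below 0 in 27 of 31, by a median of -0.12 (-0.06 without Sham-SCI replicate 1). Of them 5 (16.1%) lay wholly below, near the 13.1% of all genes. Aminoacyl-tRNA synthetases were below 0 in 18 of 19 and wholly below in 8, with a median of -0.23. Cell division genes had a median of -0.07 (-0.22 to 0.13 with an array left out, lowest without Sham-SCI replicate 2 and highest without Sham-SCI replicate 1), with 0 wholly above and 2 wholly below.

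Genes of the circadian list lay on both sides of 0. Per1 and Per3, repressors of the clock, lay wholly above, Per1 with 8.74, 8.23 and 8.28 in SCI, against 8.04, 7.74 and 7.99 in Sham-SCI (log2 fold change 0.49, SE 0.15, adjusted p = 0.16) and Per3 with 9.42, 9.32 and 9.11 in SCI, against 8.51, 8.73 and 9.03 in Sham-SCI (log2 fold change 0.53, SE 0.157, adjusted p = 0.15). Cry1, their partner, lay wholly below with 7.64, 7.12 and 7.38 in SCI, against 7.98, 7.82 and 7.75 in Sham-SCI (log2 fold change -0.47, SE 0.144, adjusted p = 0.16), and Nfil3, a repressor of clock output genes, measured 7.47, 7.05 and 8.22 in SCI, against 8.60, 8.96 and 7.97 in Sham-SCI with overlap. The hour at which muscles were taken is not given in the sources used here. None of these genes was called.

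Because SCI animals also had the gastrocnemius tenotomy, the values of the 58 genes were set beside those of gastrocnemius ablation (GA), a tenotomy of the same muscle, in rats with an intact cord. These are 3 GA and 3 Sham-GA animals, all female Wistar rats, at each of 1, 3 and 7 days, against 21 days for SCI animals. None of these arrays entered the comparison above. At 1 day 8 of 14451 genes changed (0.0554%) and 1978 had an unadjusted p under 0.05, and at 3 days 0 changed (0%) and 2383 had an unadjusted p under 0.05. None of the 58 genes was called at 1, 3 or 7 days. Of the 35 genes that fell in SCI, 23 were below 0 at 1 day and 31 at 3 days, where 51.8% and 55.2% of all genes were, and of the 23 that rose, 5 and 13 were above 0, where 48.2% and 44.8% of all genes were. The fallen genes had medians of -0.11, -0.31 and -0.17 at 1, 3 and 7 days. Postn was at -0.31, 1.45 and 0.35. The values that follow are those at 7 days, the longest time after that surgery. At 7 days 0 of 14451 genes changed (0%), while 380 had an unadjusted p under 0.05. Of the 23 genes that rose in SCI, 11 were above 0 after GA, where 50.2% of all genes were, and of the 35 that fell, 24 were below 0, where 49.8% were. These shares rested on small values. The medians after GA were -0.01 for the risen and -0.17 for the fallen genes, and 6 of the 58 reached 1.5 fold, or 4 without GA replicate 3 and 13 without Sham-GA replicate 3. Zp2 had the lowest value, -1.47 (SE 0.492), beside -1.57 in SCI, and Zfp474 was at -1.25 (SE 0.584), beside -2.42. Igfbp5, which rose in SCI, was at -0.61 (SE 0.294) after GA. Bdh1 was at -0.45 (SE 0.431) and Rcan2 at -0.77 (SE 0.465), both below 0 in either setting, whereas Scd was at 0.12 and Ankrd2 at 0.06. Sham-GA animals had the same leg operation without the cut, so GA against Sham-GA does not show what that operation did. Mean levels in Sham-GA at 7 days differed by gene. Postn, Sfrp4 and C7 were at 12.36, 11.75 and 10.20, against 11.08, 11.75 and 10.34 in SCI and 8.25, 8.86 and 7.74 in Sham-SCI. Scd, Cd28 and Cntfr were at 8.70, 6.20 and 6.67, against 10.96, 8.87 and 9.62 in SCI and 7.32, 5.88 and 7.44 in Sham-SCI. Neither the difference between SCI and GA nor these levels across experiments were tested.

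For the 4 genes that kept their calls whichever array was dropped, the levels in the other groups of the table were as follows. Bdh1 had 5.95, 6.33 and 6.86 as its lowest, median and highest value over the 9 SCI animals with ES, and 8.52, 9.35 and 10.29 over the 9 intact Sham-GA animals. Zfp385b had 4.89, 5.51 and 6.64 over the SCI animals with ES and 6.81, 7.98 and 8.39 over the Sham-GA animals. In both genes the ranges of ES and Sham-GA animals did not meet. Igfbp5 had 11.70, 12.21 and 12.47 over the SCI animals with ES and 10.09, 11.04 and 11.43 over the Sham-GA animals, again without meeting. Itm2a had 10.45, 11.04 and 11.52 over the SCI animals with ES and 8.86, 9.85 and 11.71 over the Sham-GA animals, and here the ranges overlapped. Its Sham-GA means were 9.37, 9.83 and 11.46 at 1, 3 and 7 days, against 10.97 in SCI.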

How the data were processed

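Soleus RNA was hybridised to Affymetrix rat arrays, 1 per animal. The authors deposited log2 values per transcript row, made with robust multi-array average (RMA) in oligo by background subtraction, quantile normalization and median polish, with versions not given in the sources used here. Arrays carry no read depth, so their number limits the precision. Groups came from the titles. In limma 3.58.1 (R 4.3.3) the 15 arrays of the 5 spinal cord groups were fitted together, with moderated variances and Benjamini-Hochberg adjustment over all genes tested. Genes needed a mean of at least 3, and a gene with several rows was read from the brightest. Rows with no symbol or several were left out. Tested on simulated data for this comparison over 14456 genes, the fit called 31.3% of changes of 1.5 fold, 82.1% of 2 fold and 95.5% of 4 fold. The simulated noise was drawn separately for each gene, without shifts that many genes of an animal share. Its changed genes were drawn from all genes whatever their spread, whereas Tecrl, uncalled at -3.56, had an SE of 0.811. Of the real differences of at least 2 fold, 15 of 186 above and 19 of 87 below were called. The simulated shares may therefore not hold for the real arrays. Named were all called genes, the 10 largest uncalled separated genes in each direction, the ends and smallest p values of each list, and markers. The members and lists were chosen with earlier results of these data known, and the promoter motifs after the calls. The alternatives were other filters, normalizations, sample sets, priors, weights and row rules, a replicate block, the test across groups that the study's methods describe, and leaving out each array. Nothing in the labels says how animals were housed or operated on together, so batches could not be examined.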

Additional observations from a re-analysis of the deposited data

How the results depend on the processing

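The count of changed genes, 58 (23 upward and 35 downward), differed between settings. It was 154 (86 and 68) with the 6 arrays alone, 142 (70 and 72) with all 33 arrays, 700 (423 and 277) with array quality weights and 93 (42 upward) with a variance filter, which left 7228 genes to test against 14456. Centring on array medians gave 55 downward, and 815 genes wholly above. The test across groups of the study's methods gave 368 (206 and 162) unadjusted with either filter, 1 (0 and 1) after Benjamini-Hochberg adjustment, and 8 (2 and 6) after adjustment with the variance filter. With the replicate number as a block the count was 26 (11 and 15), of which 24 were among the 58. Same-numbered SCI and Sham-SCI arrays deviated oppositely (correlations -0.34, -0.20 and -0.24). The labels do not say whether the numbers pair the animals, and these correlations cannot decide it. With 1 array left out, the count ran from 5 to 65, with 3 to 27 upward and 2 to 38 downward, and wholly separated genes from 1658 to 2451 above and 2400 to 2852 below, where 2 arrays against 3 separate more readily. Only Igfbp5, Itm2a, Zfp385b and Bdh1 were called in all 6 of these fits, 34 genes were called in 1 to 5 and 20 in none. None of the 58 changed genes or the 20 large uncalled genes reversed under any alternative run. All of them were wholly separated, so leaving out an array could not reverse them, and filters and priors leave the group means as they are. Of the 69 lists, 43 kept the sign of their median in every alternative run and 26 did not in some. With 3 arrays in each group, small changes could be missed, and so could large ones, as Tecrl at -3.56 was not called.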
